A study of Mus musculus with 12 samples.

Results

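Xbp1 and 9 genes for chaperones and quality control of the endoplasmic reticulum (Hspa5, Hsp90b1, Dnajb9, Dnajc3, Sdf2l1, Pdia4, Pdia6, Calr and Herpud1) were followed across 12 single-colour Affymetrix mouse arrays. Their 25 probe sets are those that the array annotation pairs with exactly 1 symbol, that of the gene. The 10 genes are 10 of 18194 genes with such a probe set. Each gene was represented by its brightest probe set, and all 10 passed the filter on low signals that left 10583 genes for testing.

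Per the labels, RNA came from blood cells of mice that have or lack both Stat5a and Stat5b, and each genotype was sampled with and without CMP. This gave 4 groups of 3 arrays: controls and Stat5 knockouts, each either without or with CMP. The titles follow 3 naming patterns. These are called sets A, B and C here, and every set holds 1 array of each group. The labels do not say whether CMP names something given or the cells, which blood cells were used, how the Stat5 genes were removed, how old the mice were, or whether the arrays of a group came from separate animals. In sets A and C the titles of all arrays carry the letters CMP, the minus arrays included, and within a genotype the sign, plus or minus, sets the groups apart. The words with and without CMP follow the treatment protocols. "The CMP effect" is therefore no more than the difference of the arrays with a plus sign from those with a minus sign, and p-values measure only the spread between these samples, which may be technical. In these bulk samples, fewer cells of a type and less RNA per cell cannot be told apart.

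The endoplasmic reticulum folds secreted and membrane proteins. When unfolded proteins build up there, the sensors IRE1, PERK and ATF6 start the unfolded protein response. IRE1 splices the Xbp1 message into the form that encodes an active transcription factor, and XBP1 and cleaved ATF6 then raise chaperone, folding and degradation genes, while PERK acts through ATF4 on amino acid and stress genes. XBP1 is best known in blood for building the secretory apparatus of plasma cells. Whether the Xbp1 probe sets separate its spliced and unspliced messages was not tested, so the Xbp1 signal cannot be assigned to either form.

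The promoters of the 10 genes are shown first, because ATF6 and XBP1 are known to raise chaperone genes through elements close to the gene start. All 10 genes matched an entry of the RefSeq promoter table (build GRCm38.p6), and the 250 bases before each gene start were searched on both strands. The motifs were the endoplasmic reticulum stress element ERSE (CCAAT, a gap of 9 bases, CCACG), ERSE-II (ATTGG, a gap of 1 base, CCACG), the core TGACGTGG of the unfolded protein response element, and the core TGATGNAA of the element bound by C/EBP-ATF dimers. An ERSE was found in 5 of 10 members, against 37 of 32851 promoters of the same length (0.113%), the members included. These 5 were Hspa5, Hsp90b1, Dnajc3, Pdia6 and Calr, with 2 matches in Hsp90b1. The motifs searched are known elements of such genes, so the shares are a description and not a test. ERSE-II was found in Herpud1 alone among the members, and in 10 of 32851 promoters (0.0304%). The C/EBP-ATF core was also found in Herpud1 alone, against 3.45% of all promoters, and the unfolded protein response core in none of the 10, against 0.563%. The promoters of Xbp1, Dnajb9, Sdf2l1 and Pdia4 held none of these letters in this window, from which nothing follows about the factors.

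Printed here are the promoters of Hspa5, with an ERSE close to the start, and Hsp90b1, with an ERSE on each strand. Pdia6 follows as the ERSE gene whose brightest probe set had a called fall, in knockouts only. Other probe sets of Hspa5, Hsp90b1 and Calr also had called falls. Herpud1 is printed with the C/EBP-ATF core (further from the start) and ERSE-II. Sdf2l1 and Xbp1, the genes that were called in both genotypes, are added as promoters without a match. Capitals mark the matches.
Hspa5, GRCm38.p6 chr2:34771840-34772089, plus strand: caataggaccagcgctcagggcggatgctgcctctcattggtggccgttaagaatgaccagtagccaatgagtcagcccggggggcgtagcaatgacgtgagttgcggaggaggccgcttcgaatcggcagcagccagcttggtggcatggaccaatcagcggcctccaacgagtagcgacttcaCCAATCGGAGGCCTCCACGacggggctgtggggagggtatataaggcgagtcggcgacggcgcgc
Hsp90b1, GRCm38.p6 chr10:86705445-86705694, minus strand: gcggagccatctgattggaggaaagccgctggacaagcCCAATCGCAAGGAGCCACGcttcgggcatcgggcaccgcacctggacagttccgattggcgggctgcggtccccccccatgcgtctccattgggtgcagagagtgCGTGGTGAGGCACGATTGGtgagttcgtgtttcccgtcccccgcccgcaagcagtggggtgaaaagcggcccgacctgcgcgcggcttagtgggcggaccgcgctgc
Pdia6, GRCm38.p6 chr12:17266339-17266588, plus strand: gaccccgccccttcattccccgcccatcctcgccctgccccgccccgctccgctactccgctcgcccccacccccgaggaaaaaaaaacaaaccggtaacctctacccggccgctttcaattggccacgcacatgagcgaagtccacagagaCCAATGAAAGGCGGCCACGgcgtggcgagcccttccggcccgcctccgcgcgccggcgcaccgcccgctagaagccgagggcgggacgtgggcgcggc
Herpud1, GRCm38.p6 chr8:94386179-94386428, plus strand: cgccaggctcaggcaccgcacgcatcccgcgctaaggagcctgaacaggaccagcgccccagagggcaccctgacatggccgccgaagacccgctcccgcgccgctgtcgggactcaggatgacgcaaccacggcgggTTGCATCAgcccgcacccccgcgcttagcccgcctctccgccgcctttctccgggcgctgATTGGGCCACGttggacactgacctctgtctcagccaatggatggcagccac
Sdf2l1, GRCm38.p6 chr16:17132384-17132633, minus strand: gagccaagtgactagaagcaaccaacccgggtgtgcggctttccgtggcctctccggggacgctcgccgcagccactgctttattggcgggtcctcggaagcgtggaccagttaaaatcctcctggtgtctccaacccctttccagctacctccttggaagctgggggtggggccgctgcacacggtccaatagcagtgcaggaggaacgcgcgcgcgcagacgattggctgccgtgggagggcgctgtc
Xbp1, GRCm38.p6 chr11:5520391-5520640, plus strand: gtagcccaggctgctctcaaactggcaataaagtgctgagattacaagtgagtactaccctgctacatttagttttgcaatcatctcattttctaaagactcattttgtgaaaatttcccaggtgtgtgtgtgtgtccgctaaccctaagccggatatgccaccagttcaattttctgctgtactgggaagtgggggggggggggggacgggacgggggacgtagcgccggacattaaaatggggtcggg

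The matches lay at different distances from the start. The ERSE of Hspa5 covered bases 65 to 47 before the start, that of Pdia6 bases 98 to 80 and that of Dnajc3 bases 105 to 87, each on the strand of the gene. The ERSE of Calr, at bases 162 to 144, was on the opposite strand. Hsp90b1 had one at bases 212 to 194 on its own strand and one at bases 107 to 89 on the other. In Herpud1, ERSE-II covered bases 52 to 42. The 4 genes whose promoters are not printed lie at chr12:44205897-44210068 (Dnajb9), chr14:118937932-118981702 (Dnajc3), chr6:47796141-47813512 (Pdia4) and chr8:84842088-84846931 (Calr) of the same build.

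**Figure D1:**
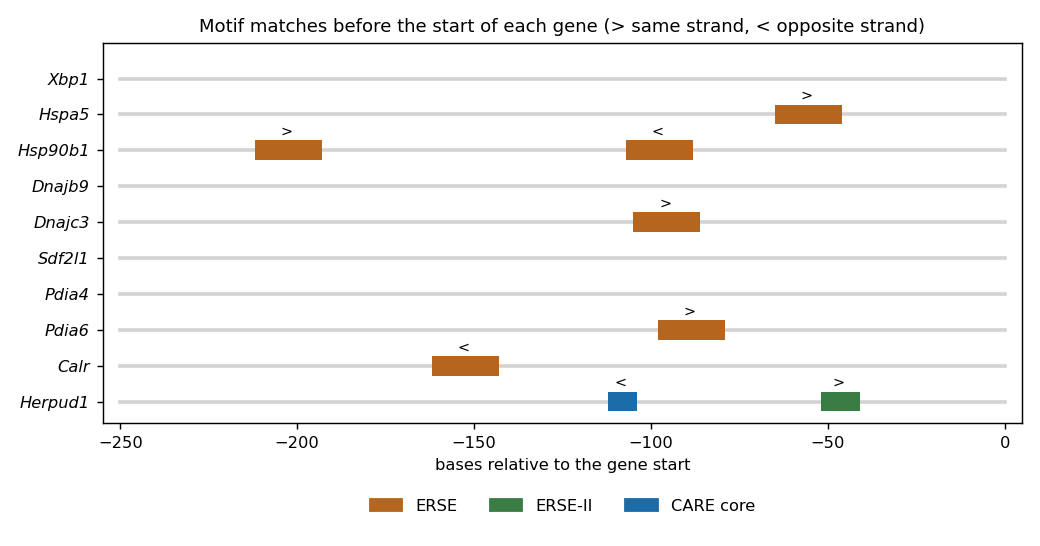
Positions of motif matches in the 250 bases before the start of each gene, in bases relative to the start; bars are matches, coloured by motif, with the strand marked above. An ERSE is seen in 5 of 10 genes, ERSE-II and the C/EBP-ATF (CARE) core in Herpud1 alone, and Xbp1, Dnajb9, Sdf2l1 and Pdia4 have none.

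The deposited signals are linear MAS5 intensities, scaled alike in every array. Stat5a and Stat5b, on chromosome 11, separated the genotypes: the Stat5a signal was 660 to 1436 in controls and 28.9 to 90.1 in knockouts, and that of Stat5b 1036 to 2177 and 7.28 to 82.8. The array of the knockout without CMP in set B is called a control by its treatment protocol but had the low Stat5 signals of a knockout, and was grouped by its title. The log2 ratio of the 3′ to the 5′ beta-actin probe set, a sign of RNA quality, was 4.30 to 5.78 on the 4 arrays of set B and 0.252 to 2.14 on the other 8. Within each set and genotype it was higher with CMP (6 of 6 pairs), so RNA quality moved with every CMP effect given here; the adjusted p with this ratio as a covariate is given for each CMP effect of the 10 genes or their probe sets whose call it ended, and for the changes relative to Xbp1 the count of calls is given. Some markers of other cells moved too. Their counts stand beside the shares of all genes with an adjusted p under 0.05. With CMP these were 10.6% higher and 11.6% lower in controls, and 9.03% and 9.72% in knockouts. Apart from the erythroid list and the short T and NK cell list, few markers of each list passed. Of 8 erythroid markers on the array, 6 were tested and 4 fell with CMP in each genotype, while Tfrc rose in knockouts. The summed erythroid signal was 10380 to 41460 without and 5020 to 8801 with CMP in controls, and 8910 to 23010 and 3987 to 6717 in knockouts. T and NK cell markers summed to 4856 to 5827 without and 1685 to 2502 with CMP in controls, and to 4600 to 5856 and 2726 to 3208 in knockouts, with 3 of 8 tested, 1 higher and 1 lower in each genotype. Nkg7 fell (-2.02 ± 0.24 in controls and -1.96 ± 0.24 in knockouts), Klrd1 rose (1.56 ± 0.46 and 2.35 ± 0.46), and Cd8a was not called. Of 10 mast cell, basophil and eosinophil markers, 6 were tested, and 1 fell in controls and 2 in knockouts, with Cpa3 at -2.02 ± 0.29 and -1.92 ± 0.29 and, in knockouts, Mcpt8 at -1.07 ± 0.29. Their summed signal was 16910 to 21730 without and 8469 to 14560 with CMP in controls, and 14220 to 20180 and 2539 to 17090 in knockouts, so that the groups did not overlap in controls and overlapped in knockouts. Of 10 neutrophil and granulocyte precursor markers, all tested, 2 fell in controls (Ctsg, -0.97 ± 0.28, and Prtn3, -0.61 ± 0.19) and 2 in knockouts (Camp, -1.47 ± 0.43, and Prtn3, -0.60 ± 0.19), with overlapping summed signals of 48810 to 219200 and 38170 to 195600 in controls and 56510 to 192000 and 48570 to 90460 in knockouts. Of 6 megakaryocyte and platelet markers, all tested, only Gp9 was called, lower in both genotypes (-1.25 ± 0.25 and -1.43 ± 0.25), with overlapping summed signals of 20170 to 31930 and 15590 to 25720 in controls and 16560 to 26470 and 11170 to 21750 in knockouts. Of 6 tested dendritic cell markers none was called in controls, while in knockouts H2-Ab1 fell (-0.83 ± 0.22) and Cd74 rose (1.28 ± 0.35), and of 6 tested macrophage and monocyte markers none was called in either genotype. The summed signals of both lists overlapped between the groups. Of 7 fibroblast markers on the array, 1 had a mean above the filter. No marker was at a signal of 0, and the part of these shifts in the results was not tested.

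Changes are given as differences of log2(signal + 32), which understates changes of low signals, with the standard error (SE) of a single limma fit over the 12 arrays that held group and naming set. A gene is called where its adjusted p, by the Benjamini-Hochberg method over all genes tested, is under 0.05 in a two-sided test. With CMP, 10.6% of all genes were called higher and 11.6% lower in controls, and 9.03% and 9.72% in knockouts. Of the 10 genes, 1 was higher, 1 lower and 8 not called in controls, and 1 higher, 2 lower and 7 not called in knockouts, which is near the background in each direction. The median change of the 10 was -0.29 in controls and -0.21 in knockouts, beside -0.02 and -0.06 over all genes. Centring each array on its median moved the median of all genes in controls to -0.22 and that of the 10 to -0.48, and 27.8% of all calls in controls were then higher, against 47.7%. In knockouts this share moved from 48.2% to 37.5%. In both genotypes and under both scalings, 8 of the 10 genes lay below the median of all genes.

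**Figure D2:**
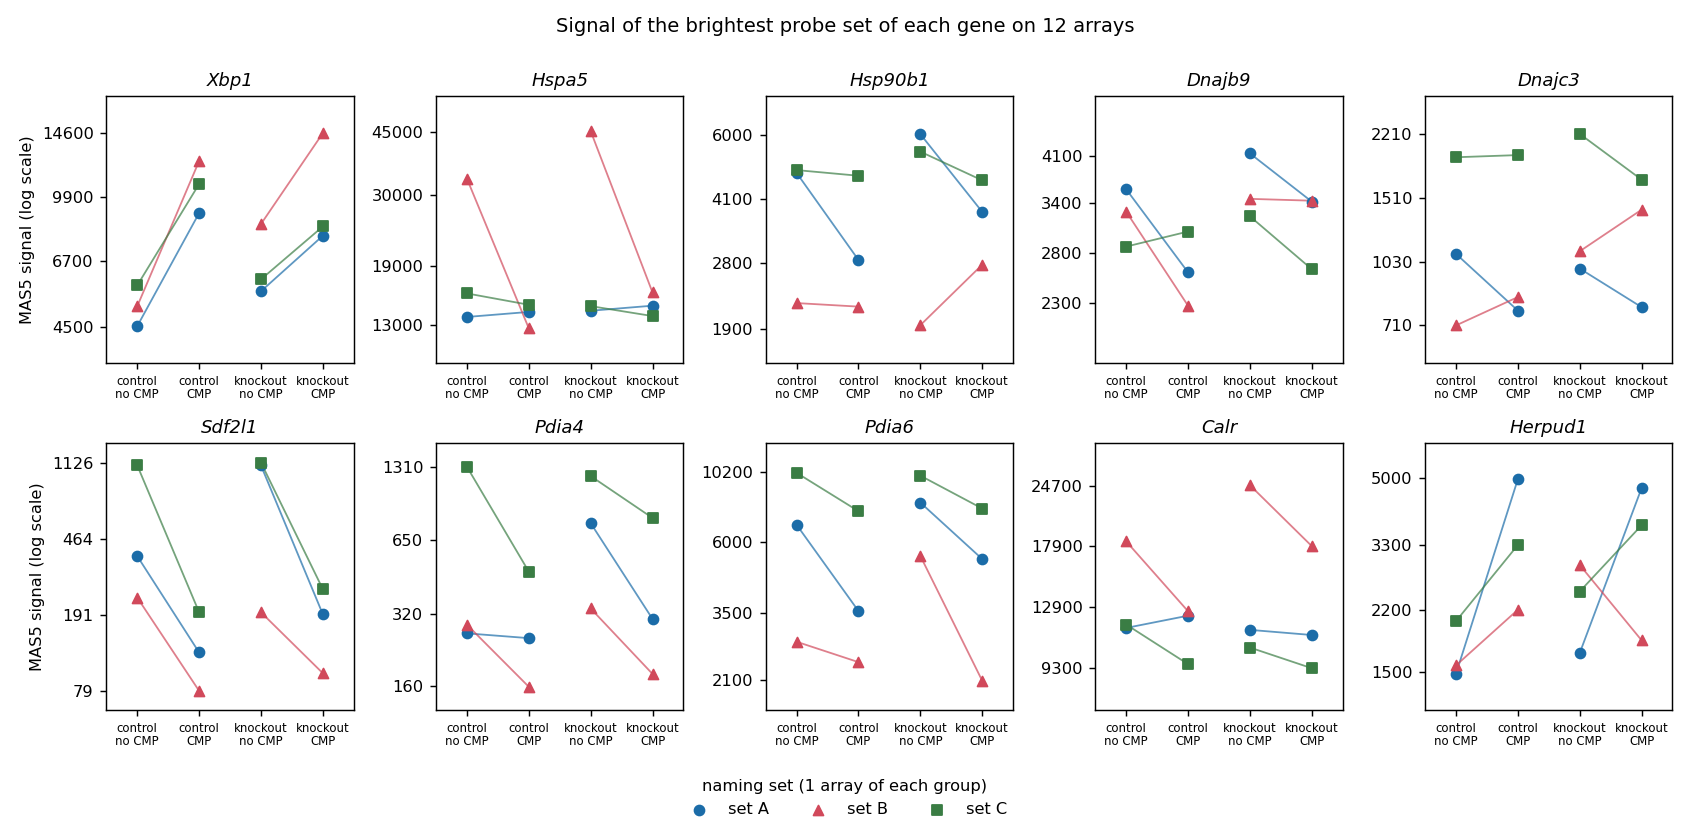
MAS5 signal of the brightest probe set of each of the 10 genes (log axis, each panel with its own range) in the 4 groups; each point is 1 array, coloured and shaped by naming set, and lines join arrays of the same set and genotype. Xbp1 rises along all 6 lines and Sdf2l1 falls along all 6, while Hspa5 falls steeply only along the lines of set B.

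Xbp1, the transcription factor itself, was higher with CMP. Its brightest probe set, 1437223_s_at, gave signals of 4510, 5089 and 5777 (sets A, B and C) in controls without CMP and 8961, 12290 and 10690 with CMP. In knockouts it gave 5575, 8385 and 5993 without CMP and 7810, 14560 and 8262 with CMP. The groups did not overlap in controls. In knockouts they overlapped, as the set B array without CMP lay above the arrays of sets A and C with CMP.

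In controls the Xbp1 rise was 2.06-fold (log2 1.05 ± 0.17 SE, with 3 arrays in each group; adjusted p = 0.00191 by limma), at 0.99, 1.27 and 0.88 in sets A, B and C. In knockouts it was 1.49-fold (0.58 ± 0.17, adjusted p = 0.0375), at 0.48, 0.79 and 0.46. Both rises were positive in 3 of 3 sets. The difference between them, the interaction, was -0.47 ± 0.25 and did not pass (adjusted p = 0.954, unadjusted p = 0.0822), at -0.50, -0.47 and -0.42 in the sets. The call in controls was lost without the block for naming set (adjusted p = 0.066) and in none of the other 26 alternatives. The call in knockouts was lost in 18 of 27 alternatives, among them array centring (adjusted p = 0.113), the beta-actin ratio as a covariate (0.31, adjusted p = 0.491) and the fit without the naming set block (adjusted p = 0.348). It was also lost without set A (adjusted p = 0.161) or set C (0.175) and without any of 8 single arrays. These were all 3 knockout arrays without CMP (adjusted p = 0.0948, 0.0807 and 0.144 for sets A, B and C), those with CMP of set A (0.0638) and B (0.105), the control without CMP of set A (0.0544), and the controls with CMP of set A (0.051) and C (0.0557).

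By level, the Xbp1 groups were ordered as controls without CMP, knockouts without, knockouts with and controls with CMP, at mean signals of 5099, 6544, 9796 and 10560 (means taken on the log2 scale, with SDs of 0.18, 0.31, 0.50 and 0.23). The lowest neighbours differed by 0.36 ± 0.17 and the highest by 0.11 in size (-0.11 ± 0.17, knockouts minus controls), neither of which passed (adjusted p = 1.0 and 0.798).

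Each of the 3 other Xbp1 probe sets also had positive changes, of 0.91 to 1.01 in controls and 0.26 to 0.48 in knockouts. With every probe set fitted as a row of its own, 9.67% of 18864 probe sets were called higher and 8.95% lower in controls, and 7.18% and 7.4% in knockouts. In that fit 3 of 4 Xbp1 probe sets were called higher in controls and 1 in knockouts. The control call of 1420011_s_at was lost without set A (adjusted p = 0.0623) or C (0.0859). That of 1420886_a_at was lost without set A (adjusted p = 0.113) or C (0.125), without the naming set block (0.316) and with the beta-actin covariate (0.74, 0.123). The probe set 1420886_a_at gave 2686, 1545 and 3461 without and 6164, 2454 and 6944 with CMP in controls, and 3052, 2411 and 3303 against 4875, 2372 and 5481 in knockouts. On it the set B arrays were the lowest of each group with CMP, whereas on 1437223_s_at they were the highest.

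Hspa5, which encodes BiP, the main Hsp70 chaperone of the endoplasmic reticulum and a regulator of the stress sensors, was not called by its brightest probe set. The probe set 1416064_a_at gave 13690, 33350 and 15930 in controls without CMP and 14140, 12730 and 14810 with CMP, and 14250, 45300 and 14680 against 14720, 16030 and 13770 in knockouts. The set B arrays without CMP stood far above the other 10 arrays, which lay between 12730 and 16030. The change was -0.48 ± 0.31 in controls (adjusted p = 0.285) and -0.51 ± 0.31 in knockouts (adjusted p = 0.264), and -0.03 and -0.02 without set B. With the mean of all 3 Hspa5 probe sets in place of the brightest, it was called lower in both genotypes (-0.52 with adjusted p = 0.0447, and -0.59 with 0.0327).

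A second Hspa5 probe set, 1427464_s_at, gave 3289, 3679 and 4720 in controls without CMP and 2125, 1389 and 3343 with CMP, and 4570, 4765 and 5210 against 2488, 1311 and 3282 in knockouts. It was lower with CMP in 3 of 3 sets of each genotype, and the knockout groups did not overlap. Its change was -0.83 ± 0.24 in controls (adjusted p = 0.032, lost in 11 of 25 alternatives) and -1.12 ± 0.24 in knockouts (adjusted p = 0.0104, lost in 7 of 25). In controls the call was lost without set A (adjusted p = 0.115) or C (0.122), any array without CMP (0.0511, 0.157 and 0.0769 for sets A, B and C), or those with CMP of set A (0.0734) or B (0.136). In knockouts it was lost without set A (adjusted p = 0.0616) or C (0.0628) and without the knockout without CMP of set B (0.0588). The beta-actin covariate ended both calls (adjusted p = 0.209 and 0.158). The 1447824_x_at probe set had -0.26 and -0.14 and was not called; its suffix marks probes that can match other sequences.

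Hsp90b1 encodes GRP94, the Hsp90 of the endoplasmic reticulum, which folds integrins and Toll-like receptors. Its brightest probe set, 1415889_a_at, gave 4785, 2215 and 4865 in controls without CMP and 2859, 2169 and 4705 with CMP, and 6020, 1943 and 5426 against 3800, 2779 and 4579 in knockouts. The groups overlapped, and the change was -0.27 ± 0.23 in controls (adjusted p = 0.415) and -0.13 ± 0.23 in knockouts (adjusted p = 0.718).

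The other Hsp90b1 probe set, 1438040_a_at, gave 2557, 862 and 2670 without and 1715, 184 and 2147 with CMP in controls, and 4242, 860 and 3008 against 2149, 607 and 2297 in knockouts. It was lower with CMP in all 6 pairs, and lowest in set B in every group. In controls its change of -0.98 ± 0.30 was called (adjusted p = 0.0434), but the call was lost in 20 of 25 alternatives. These include leaving out set A, B (-0.44) or C (adjusted p = 0.112, 0.127 and 0.0912) and any of 10 single arrays (adjusted p = 0.0509 to 0.198), that is all but the set C control with CMP and the set B knockout with CMP. With the beta-actin covariate it had -1.06 (adjusted p = 0.159). In knockouts it had -0.61 ± 0.30 (adjusted p = 0.193).

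Among the partners of BiP, Dnajb9 (ERdj4) and Dnajc3 (P58IPK) are J-domain co-chaperones. Dnajb9 gave 3592, 3291 and 2872 in controls without CMP and 2596, 2278 and 3046 with CMP, and 4133, 3461 and 3232 against 3423, 3436 and 2628 in knockouts. It lay lower with CMP in 5 of 6 pairs, but the groups overlapped and the changes of -0.30 ± 0.18 and -0.19 ± 0.18 were not called (adjusted p = 0.245 and 0.479).

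Dnajc3 gave 1084, 708 and 1926 in controls without CMP and 773, 838 and 1951 with CMP, and 993, 1100 and 2214 against 789, 1409 and 1686 in knockouts. Its changes, -0.07 ± 0.25 and -0.12 ± 0.25, were the smallest in size among the 10 genes in both genotypes (adjusted p = 0.864 and 0.769). The other 3 tested probe sets of Dnajc3 had -0.51 to -0.05 in controls and -0.44 to 0.50 in knockouts and were not called, and the last lay below the filter.

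Sdf2l1, a stable partner of the J-domain protein ERdj3 that keeps unfolded proteins soluble, fell furthest. It gave 379, 234 and 1091 in controls without CMP and 123, 78.8 and 197 with CMP, and 1089, 197 and 1126 against 192, 96.8 and 258 in knockouts. The groups did not overlap in controls. In knockouts the set B array without CMP, at 197, lay within the range of the arrays with CMP.

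The Sdf2l1 fall was 3.14-fold in controls (log2 -1.65 ± 0.35, adjusted p = 0.00655; -1.40, -1.26 and -2.29 in sets A, B and C). It was 3.29-fold in knockouts (-1.72 ± 0.35, adjusted p = 0.00684; -2.32, -0.83 and -2.00). The 2 calls were lost without the naming set block (adjusted p = 0.193 and 0.202), with the beta-actin covariate (-1.41 with adjusted p = 0.093, and -1.45 with 0.138) and without set C (0.133 and 0.103). In knockouts the call was also lost without set A (adjusted p = 0.0694). The other alternatives left both calls in place.

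Pdia4 (ERp72) and Pdia6 (P5) are disulfide isomerases that form and rearrange disulfide bonds. Pdia4 gave 265, 288 and 1311 in controls without CMP and 253, 159 and 480 with CMP, and 763, 337 and 1199 against 305, 180 and 802 in knockouts. It lay lower with CMP in all 6 pairs, and the groups overlapped. Its changes of -0.73 ± 0.28 in controls (adjusted p = 0.0849) and -0.87 ± 0.28 in knockouts (adjusted p = 0.0525) were not called. Both were called with centred arrays (adjusted p = 0.0215 and 0.0266) and without the control without CMP of set A (0.0241 and 0.0314). The Pdia4 change in controls was also called after quantile normalization (adjusted p = 0.0272) and with the conflicting array as a control (0.0479).

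Pdia6 gave 6846, 2813 and 10160 in controls without CMP and 3553, 2409 and 7591 with CMP, and 8106, 5404 and 9945 against 5276, 2092 and 7746 in knockouts. All 6 pairs fell, although the groups overlapped because the sets differ in level. The change in knockouts, -0.78 ± 0.21, was called (1.71-fold lower, adjusted p = 0.0256), and that in controls, -0.53 ± 0.21, was not (adjusted p = 0.0948). The difference between the 2 changes was -0.25 ± 0.30 (interaction adjusted p = 0.954).

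The Pdia6 call in knockouts was lost in 12 of 27 alternatives, including the fit without the naming set block (adjusted p = 0.547) and the beta-actin covariate (0.286). It was lost without set A (adjusted p = 0.0918), B (-0.49, 0.0678) or C (0.094), a knockout array without CMP (0.0717 for set A, 0.126 for set B), and those with CMP of set B (0.0704) or C (0.0519). In controls Pdia6 was called without set B (-0.68, adjusted p = 0.0197), with centred arrays (0.0296) and with the conflicting array as a control (0.0359). The second probe set of Pdia4 and that of Pdia6 lay below the filter.

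Calr encodes calreticulin, the soluble lectin chaperone of glycoproteins. Its brightest probe set, 1417606_a_at, gave 11550, 18330 and 11760 in controls without CMP and 12330, 12620 and 9516 with CMP, and 11430, 24740 and 10400 against 11120, 17870 and 9312 in knockouts. The groups overlapped, with the set B arrays highest in all 4, and the changes of -0.25 ± 0.18 and -0.22 ± 0.18 were not called (adjusted p = 0.343 and 0.411).

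The other 2 Calr probe sets, both with the suffix for probes that can match other sequences, were called lower in controls. The probe set 1433806_x_at gave 10530, 9245 and 7140 without and 6481, 6502 and 5461 with CMP in controls, and 10340, 11200 and 6864 against 8288, 7367 and 6167 in knockouts. The control groups did not overlap on it. Its change was -0.53 ± 0.14 (adjusted p = 0.0223), and that of 1456170_x_at was -0.48 ± 0.14 (adjusted p = 0.0321). They were lost in 10 and 12 of 25 alternatives, including the fits without set A (adjusted p = 0.25 and 0.217) or C (0.174 and 0.25) and with the beta-actin covariate (0.164 and 0.0755). Leaving out any single control array ended the call of 1456170_x_at (adjusted p = 0.0555 to 0.131), and so it did for 1433806_x_at, except for the set C array with CMP (0.0568 to 0.0962). In knockouts they had -0.36 and -0.31 and were not called.

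Herpud1, a membrane protein that assembles the HRD1 complex for the degradation of misfolded proteins, was the gene that lay on the side of Xbp1. Its brightest probe set, 1448185_at, gave 1480, 1561 and 2054 in controls without CMP and 4951, 2205 and 3295 with CMP, and 1684, 2914 and 2469 against 4685, 1826 and 3724 in knockouts. The control groups did not overlap. In knockouts the set B pair ran the other way from sets A and C.

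The Herpud1 change was 0.96 ± 0.33 in controls (adjusted p = 0.0594; 1.72, 0.49 and 0.67 in sets A, B and C) and 0.46 ± 0.33 in knockouts (adjusted p = 0.36; 1.46, -0.66 and 0.59). Neither was called, but the change in controls passed in 8 of 27 alternatives, and without set B both did (1.20 with adjusted p = 0.0133, and 1.02 with 0.0266). The control change also passed without the knockout array without CMP of set A (0.0378) or B (0.03) and that with CMP of set A (0.0486) or B (0.0252), with the mean of its probe sets (0.0208), after quantile normalization (0.0471) and with only the arrays compared (0.0136). The second probe set, 1435626_a_at, gave 674, 424 and 1612 without and 2191, 997 and 2147 with CMP in controls, and 1028, 666 and 2009 against 1850, 793 and 2867 in knockouts. It was higher with CMP in all 6 pairs. It was called in controls (1.08 ± 0.24, adjusted p = 0.0092) and not in knockouts (0.53 ± 0.24, adjusted p = 0.154). Its call was lost without the naming set block (adjusted p = 0.391), with the beta-actin covariate (0.125), and without set A (0.144) or the set A control without CMP (0.0515).

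**Figure D3:**
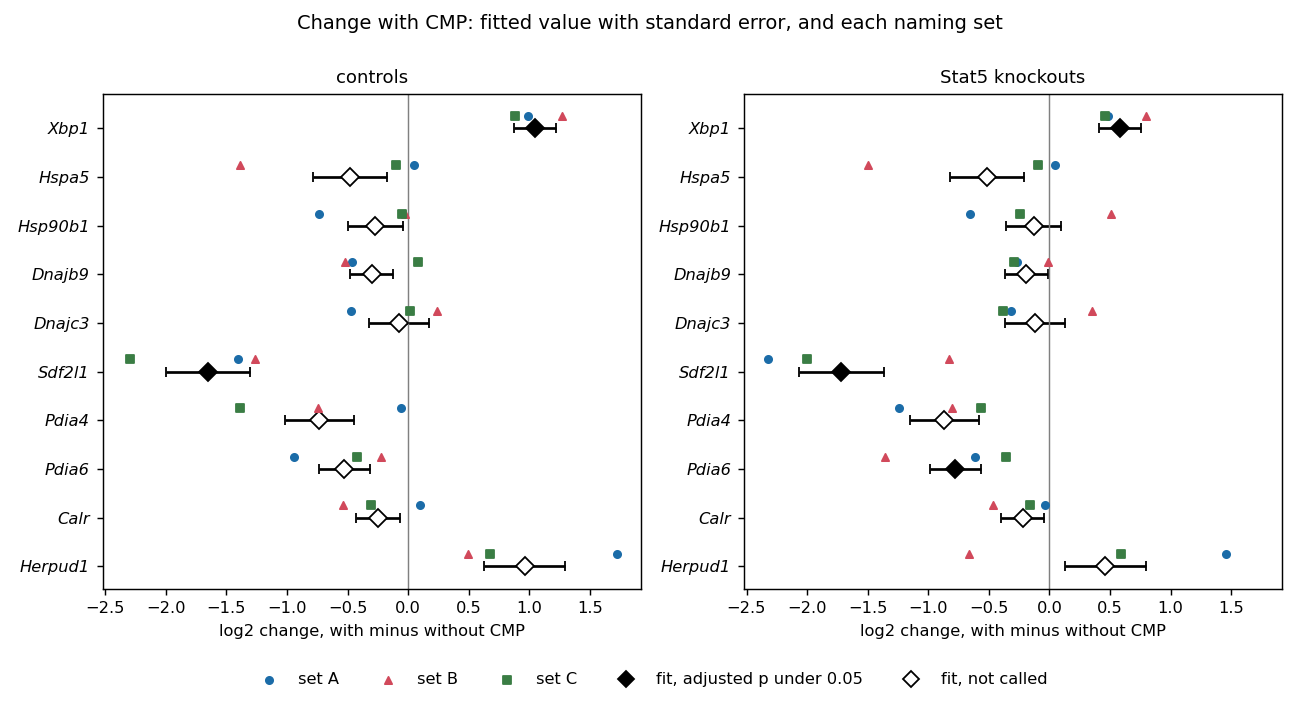
Log2 change with CMP of the 10 genes in controls (left) and Stat5 knockouts (right): diamonds are fitted changes with 1 SE, filled where the adjusted p is under 0.05, and small symbols are the 3 naming sets. Xbp1 lies at 1.05 and 0.58 and Sdf2l1 at -1.65 and -1.72, with the other chaperones at or below 0 and Herpud1 above it.

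The direction of the chaperones was opposite to that of Xbp1 in their fitted values. With CMP, the 8 chaperone and folding genes (the 10 without Xbp1 and Herpud1) had changes from -1.65 to -0.07 in controls and from -1.72 to -0.12 in knockouts, of which only Sdf2l1 was called in controls and only Sdf2l1 and Pdia6 in knockouts. Over their 16 tested probe sets, 16 changes were negative in controls and 15 in knockouts, the exception being 1 of Dnajc3. All genes of an array share its RNA and scaling, and probe sets of 1 gene are not independent, so these counts are a description. The median change of all genes was also below 0, at -0.02 in controls and -0.06 in knockouts. The signs of 2 chaperone genes were not stable over the alternatives. Dnajc3 reached 0.14 in controls and 0.04 in knockouts, and Hsp90b1 reached 0.01 and 0.18. The sign of Herpud1 in knockouts was not stable either, with a lowest value of -0.06 beside 0.46 in the main fit. Over all 22 tested probe sets of the 10 genes, 4 were called higher and 5 lower in controls, and 1 higher and 3 lower in knockouts. Those called higher belonged to Xbp1 and Herpud1 in controls and to Xbp1 in knockouts.

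**Figure D4:**
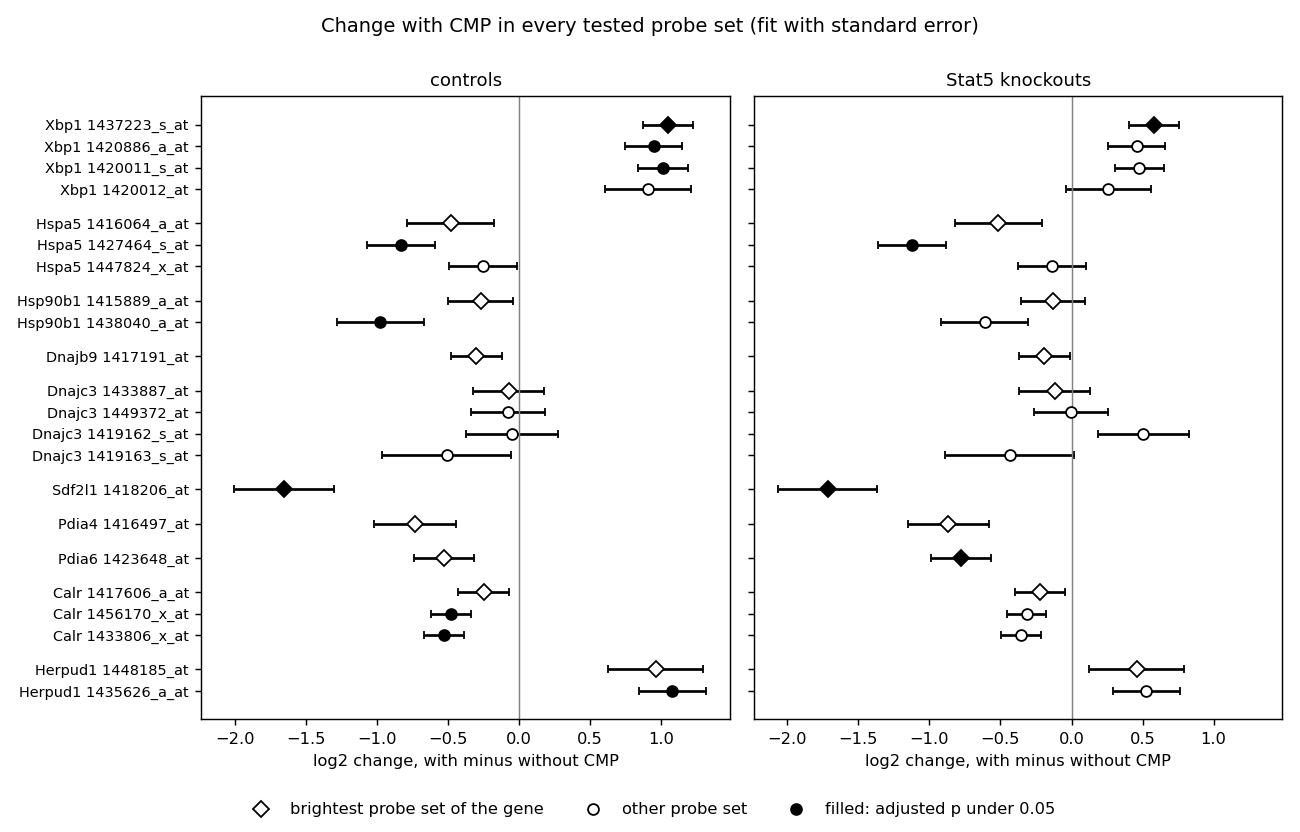
Log2 change with CMP, with 1 SE, of the 22 tested probe sets of the 10 genes in controls (left) and Stat5 knockouts (right), grouped by gene; diamonds are the brightest probe set of a gene and filled symbols have an adjusted p under 0.05. All 6 probe sets of Xbp1 and Herpud1 lie above 0 in both genotypes, and 16 (controls) and 15 (knockouts) of the 16 others lie below it.

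To test whether a gene changed differently from Xbp1, the Xbp1 value of each array was subtracted from every gene and the fit repeated. Because Xbp1 rose, 70.9% of all genes were called lower and 1.46% higher relative to it in controls, and 36.3% and 2.3% in knockouts. All genes in this fit share the error of Xbp1. In controls 8 of the 9 genes were lower relative to Xbp1, from -1.12 ± 0.24 for Dnajc3 (adjusted p = 0.00124) to -2.70 ± 0.38 for Sdf2l1 (adjusted p = 8.85e-05), beside that background. Hspa5 had -1.53 ± 0.36 (adjusted p = 0.00218) and Calr -1.29 ± 0.22 (adjusted p = 0.000318).

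In knockouts the same count, 8 of 9, was lower relative to Xbp1, from -0.70 ± 0.24 for Dnajc3 (adjusted p = 0.0339) to -2.30 ± 0.38 for Sdf2l1 (adjusted p = 0.00129), with Pdia6 at -1.36 ± 0.26 and Pdia4 at -1.45 ± 0.35. The gene not called in either genotype was Herpud1, at -0.08 ± 0.38 in controls (adjusted p = 0.844) and -0.12 ± 0.38 in knockouts (adjusted p = 0.808). Its distance from Xbp1 ranged over the sets from -0.78 to 0.73 in controls and from -1.46 to 0.97 in knockouts, so that a sizeable difference in either direction was not detectable. With the beta-actin covariate, 7 members were called lower in controls and 0 in knockouts, and without the naming set block 4 and 0. In knockouts the count fell to 5 with the second Xbp1 probe set as the reference, to 3 without set A and to 4 without set C. It also fell to 3 without the knockout array without CMP of set C, to 5 without that of set A or B, and to 3 with the conflicting array as a control.

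The loss of Stat5a and Stat5b changed none of the 10 genes by a called amount. With and without CMP, 0.0189% of all genes were called between knockouts and controls, and for the interaction of knockout and CMP 0% were. None of the 10 genes reached an unadjusted p under 0.05 in these 3 limma comparisons, where 250 genes of all (without CMP), 1038 (with CMP) and 223 (interaction) did. Without CMP the fitted knockout differences were positive for all 10 genes, beside a median of -0.01 over all genes. They ran from 0.08 ± 0.18 for Calr and 0.10 ± 0.23 for Hsp90b1 to 0.50 ± 0.28 for Pdia4. Sdf2l1 had 0.43 ± 0.35, Herpud1 0.44 ± 0.33 and Xbp1 0.36 ± 0.17. Only Xbp1, Dnajb9 and Herpud1 were positive in 3 of 3 sets, and Calr was in 1 of 3. In some alternatives the sign was negative for Hspa5 (to -0.43), Calr (-0.20), Herpud1 (-0.15), Hsp90b1 (-0.14), Sdf2l1 (-0.09) and Dnajc3 (-0.03). With CMP they ran from -0.11 ± 0.17 for Xbp1 to 0.36 ± 0.28 for Pdia4. These comparisons share the same arrays with the CMP effects.

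The rest of the pathway was described with lists of related genes that exclude the 10; each count stands beside the background shares of 10.6% and 11.6% in controls and 9.03% and 9.72% in knockouts. A list of 9 genes covered stress sensors, transcription factors and the proteases Mbtps1 and Mbtps2. With CMP, 3 of the 9 rose in controls and 2 in knockouts, with none lower and medians of 0.17 and 0.215. Atf6, a sensor that is cleaved into a transcription factor, rose by 1.19 ± 0.20 in controls (adjusted p = 0.00189) and 1.63 ± 0.20 in knockouts (adjusted p = 0.000419). The Atf6 call was lost in 2 and 1 of 27 alternatives: without the naming set block (adjusted p = 0.124 and 0.0552) and, in controls, without set C (0.0694). Eif2ak3, which encodes PERK, rose by 0.67 ± 0.22 in controls (adjusted p = 0.0465), a call lost in 19 of 27 alternatives. With centred or quantile-normalized arrays, 1 of the 9 was called in each genotype.

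Of 25 other chaperones and folding enzymes of the endoplasmic reticulum, 7 fell and 1 rose in controls, and 4 fell and 1 rose in knockouts, with medians of -0.17 and -0.16. Sil1, the nucleotide exchange factor of BiP, fell by 1.40 on the log2 scale in controls (-1.40 ± 0.23, adjusted p = 0.00195, lost in 1 of 27 alternatives) and had -1.08 ± 0.23 in knockouts (adjusted p = 0.0089, lost in 4). The disulfide isomerase Txndc5 had -1.06 ± 0.18 and -0.65 ± 0.18, and the prolyl isomerase Fkbp2 -1.29 ± 0.26 and -0.84 ± 0.26, all called; these calls were lost in 4 and 13 (Txndc5) and 2 and 16 (Fkbp2) of 27 alternatives. Ero1a, the oxidase that drives disulfide formation, rose by 0.87 ± 0.24 and 1.26 ± 0.24 (adjusted p = 0.0233 and 0.00472); with centred arrays its call in controls was lost and no gene of the list was higher.

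Of 17 tested genes of endoplasmic reticulum-associated degradation, the route in which Herpud1 acts, 5 rose and 1 fell in controls, and 3 rose and 1 fell in knockouts. Edem1, which hands misfolded glycoproteins to degradation, rose by 1.19 ± 0.26 in controls (adjusted p = 0.0071) and 1.07 ± 0.26 in knockouts (adjusted p = 0.015), calls lost in 2 and 6 of 27 alternatives. Sel1l, a core part of the HRD1 ligase, rose by 0.66 ± 0.21 and 0.76 ± 0.21 (adjusted p = 0.0434 and 0.0283, lost in 17 and 13). With centred arrays 1 gene of this list was higher in each genotype. Among 24 genes of the translocon, signal peptidase and glycosylation, 5 fell in controls and 3 in knockouts with none higher, including the oligosaccharyltransferase subunits Rpn2 (-0.85 ± 0.19 and -0.86 ± 0.19) and Ddost (-0.88 ± 0.25 and -1.11 ± 0.25), whose calls were lost in 3 and 6 and in 7 and 6 of 27 alternatives. Of 23 genes of transport to the Golgi, 2 rose and 1 fell in controls and 1 rose in knockouts; the cargo receptor Lman1 had -0.70 ± 0.19 in controls (adjusted p = 0.0192, lost in 10 of 27).

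Of 15 tested genes listed for the PERK and ATF4 arm, 12 rose and none fell in controls, with a median of 2.09. In knockouts 10 rose and 1 fell, with a median of 1.48. This list was chosen with earlier results of these data known, so its counts are a description. Whether PERK acted on these genes was not tested. The cystine transporter Slc7a11 rose by 3.40 ± 0.25 and 4.19 ± 0.25, and the asparagine synthetase Asns by 2.53 ± 0.20 and 3.22 ± 0.20. Slc7a11 (2.36 to 5.62), Asns (2.32 to 3.60), Chac1 and Trib3 kept their calls in all 27 alternatives in each genotype. Ppp1r15a, the phosphatase subunit that reverses the PERK signal, was the gene lower in knockouts (-2.24 ± 0.60, adjusted p = 0.0241, lost in 6 of 27; named after its value was seen). Of 21 heat shock chaperones that fold proteins outside the endoplasmic reticulum, 5 fell in each genotype with none higher, with medians of -0.50 and -0.28. The list is mostly cytosolic but also holds the mitochondrial Hspd1 and Hspe1. Hspa1a, an inducible Hsp70, had -2.49 ± 0.39 and -2.41 ± 0.39 (adjusted p = 0.00142 and 0.00202), and Hspa1b -1.59 ± 0.45 and -1.73 ± 0.45; these are near-identical copies whose probe sets can share signal. None of the genes of the 7 lists was called for the knockout or the interaction.

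**Figure D5:**
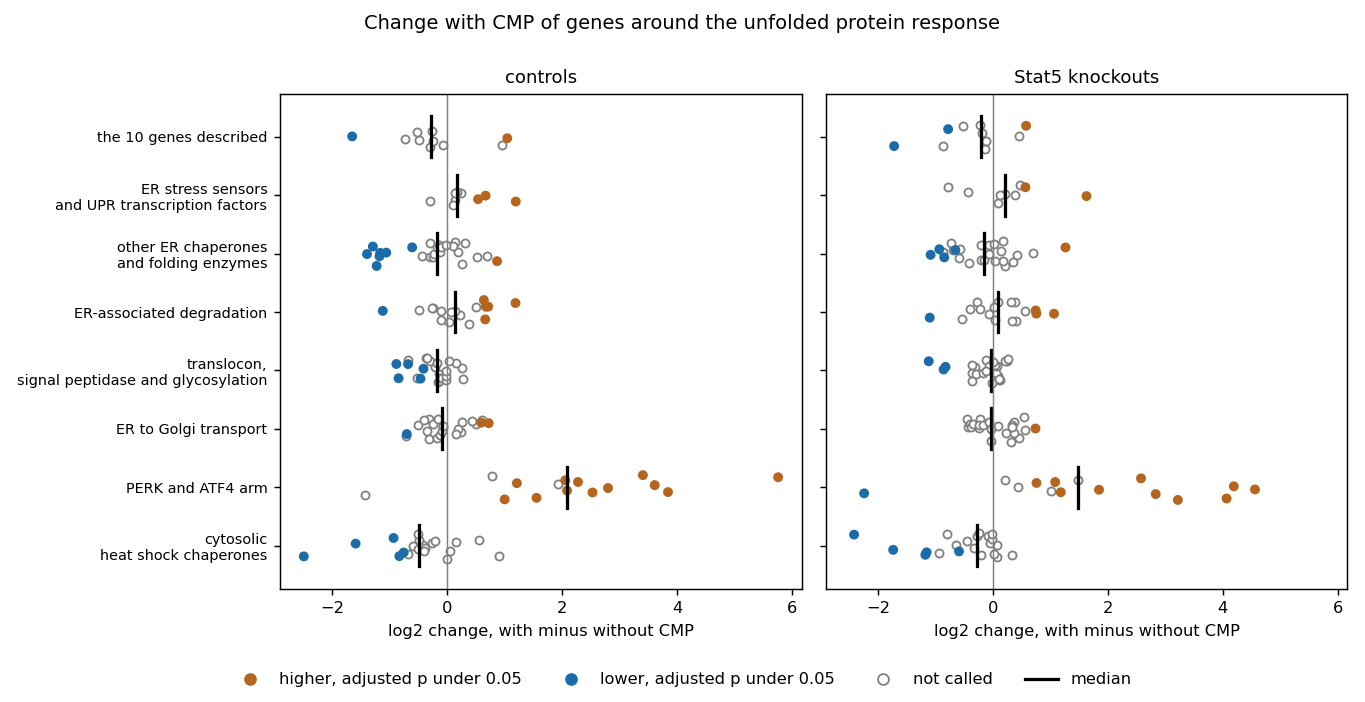
Log2 change with CMP of the 10 genes and of the tested genes of 7 related lists in controls (left) and Stat5 knockouts (right); each point is a gene, coloured where the adjusted p is under 0.05, and black bars are medians. The PERK and ATF4 arm has medians of 2.09 and 1.48, whereas the medians of the other lists lie between -0.50 and 0.215.

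Plasma cells are the blood cells best known for high Xbp1, so their markers were set beside it. Of 12 plasma and B cell markers on the array, 6 were tested, with 1 higher and 1 lower in each genotype. The background shares were 10.6% higher and 11.6% lower in controls, and 9.03% and 9.72% in knockouts. Jchain, the joining chain of secreted antibodies, had -2.59 ± 0.53 in controls (adjusted p = 0.00564) and -2.75 ± 0.53 in knockouts (adjusted p = 0.0053). Prdm1, a regulator of plasma cell fate that other blood cells also express, rose by 1.47 ± 0.35 in controls (adjusted p = 0.0111). Sdc1, the plasma cell surface marker syndecan-1, rose by 1.07 ± 0.33 in knockouts (adjusted p = 0.0408) and had 0.38 in controls, where it was not called. The summed signal of the list was 3084 to 10400 without and 5604 to 9556 with CMP in controls, and 5146 to 20650 and 7245 to 18320 in knockouts, so it overlapped between the groups. Its part in the Xbp1 change was not tested.

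Across the 12 arrays, after the mean of each naming set was removed, the 10 genes did not vary as a single group. As a description over arrays that share groups and sets, Pearson's correlation of log2(signal + 32) was 0.91 between Sdf2l1 and Pdia4, 0.84 between Hspa5 and Calr, and 0.72 between Sdf2l1 and Pdia6. Xbp1 had -0.75 with Sdf2l1, -0.62 with Pdia4 and -0.61 with Pdia6, but 0.62 with Herpud1. Hsp90b1 and Herpud1 had -0.80. Differences between the groups were not removed, so these correlations contain the CMP effects given above and are not separate evidence for them. Among all genes tested, those most like Xbp1 were Polk (0.978), Rala (0.976), Plekhg2 (0.975), Ptger4 (0.97) and Nsrp1 (0.967). Those most like Hspa5 were Zfp36l2 (0.983), Ube2v1 (0.973), C1qbp (0.972), Abl1 (0.961) and Ccdc91 (0.961). For Sdf2l1 they were Rassf3 (0.985), Pet100 (0.982), Cenpx (0.97), Lamtor4 (0.967) and Parvg (0.963). None of the other members was among the 5 nearest genes of these 3. The Hspa5 correlations, that with Calr included, lean on the set B arrays without CMP. There Hspa5 gave 33350 and 45300, against 12730 to 16030 on all others, and Calr was also highest (18330 and 24740). Set B had the highest beta-actin ratios, at 4.30 (controls) and 4.73 (knockouts) without CMP and 5.06 and 5.78 with CMP. Whether RNA quality had a part in these Hspa5 and Calr values was not tested.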

How the data were processed

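The series matrix holds linear intensity signals per probe set that the authors made with MAS5, per the submitters' processing notes; the version and scaling target are not given in the sources used here. Trimmed means (2% removed from either end) were 500.002 to 500.004 on all arrays, and array medians ran from 59.7 to 114. The table has 45101 probe sets: 34958 with 1 symbol in the array annotation, 932 with several and 9211 with none listed. Arrays have no counting depth; precision is limited by how many there are.

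The scale was log2(signal + 32). Each gene was given its probe set with the highest mean, and genes with a mean below 6.76, the median of all probe sets (a signal of 76.4), were left out. The fit (limma 3.58.1 in R 4.3.3, eBayes with a trend) held 4 groups and the naming set, with 6 residual and 5.78 prior degrees of freedom. It was tested on simulated data. Deviations from group means correlated at 0.412 to 0.773 in the 18 pairs of arrays of the same naming set and at -0.641 to 0.276 in the 36 pairs of different set and group, so the set pairs the samples and was kept as a block. Means, SDs and n refer to 3 arrays per group, while the SE comes from the single fit over all 12 arrays.

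All 10 genes are described, with up to 4 called genes per list and contrast of smallest p, and the 5 most correlated genes of Xbp1, Hspa5 and Sdf2l1. The members, the 7 pathway and 9 marker lists and the tests were chosen with earlier results of these data known. The promoter sequences are those of RefSeq (GRCm38.p6). Figures were drawn with matplotlib 3.10.9. Alternatives covered scaling, the constant (1 or 100), the filter, the probe sets, the block, the variance trend, the arrays fitted, the array with conflicting labels, RNA quality and each left-out array or set.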

Additional observations from a re-analysis of the deposited data

How the results depend on the processing

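Counts of the members called for the CMP effect moved with several settings. In controls 2 members were called: 4 with centred arrays, quantile normalization, the mean of all probe sets or the conflicting array as a control, 1 with the beta-actin covariate, 0 with no replicate block, and 1 to 4 with arrays left out (4 without set B, 1 without set C). In knockouts 3 were called: 0 with no replicate block or with the beta-actin covariate, 1 with only the arrays compared or with the conflicting array as a control, and 0 to 3 with arrays left out. Relative to Xbp1, 8 members were called in controls, 4 with no replicate block and 7 or 8 with arrays left out. In knockouts 8 were called: 0 with no replicate block or with the beta-actin covariate, 5 with only the arrays compared, 3 with the conflicting array as a control, 3 to 8 with arrays left out, and 5 with the second Xbp1 probe set as the reference, which was chosen after seeing the data. The knockout effects and the interaction called 0 members in every alternative run. Without the block the spread between naming sets enters the error; the causes of the other changes were not tested. Of 1844 values of single members under an alternative, 1718 kept their side of the threshold, 106 lost a call, 20 gained one and 0 called values changed sign; 97 values that were not called had another sign. With 3 arrays per group, a missed threshold does not show that a gene was unchanged.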
